A study of Mus musculus with 24 samples.

Results

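The genes of MHC class I and class II antigen presentation were followed through 24 mouse RNA-seq libraries as a set of 10 genes, out of 30153 Ensembl gene identifiers in the deposited table. The members were listed by symbol, with earlier results of these data known. H2-Aa, H2-Ab1 and H2-Eb1 encode class II chains, Cd74 is the invariant chain, H2-DMa and H2-DMb1 encode the peptide-exchange molecule, Ciita is the class II transactivator, Ctss is cathepsin S, and H2-K1 and H2-D1 encode classical class I heavy chains. All 10 had a row in the table.

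The study is about the kidney transcriptome under a western diet, in mice made hypertensive by extra human angiotensin receptor type 1. Hap-I and Hap-II are mice with haplotype I or haplotype II of that human gene, and the strain label is C57/BL6 for every sample. The groups, each of 4 animals by the design text, were Hap-I aged + western diet, Hap-I adult + western diet, Hap-II adult + western diet, Hap-I aged, Hap-I adult and C57 adults. No diet is named for the last 3 groups, and no age in weeks, sex, transgene promoter or number of founder lines is given in the sources used here. The C57 group therefore differs from each western diet group in the transgene and in the diet label. It also differs in the sample titles, which begin with S for C57 and the Hap-I groups without western diet, and with A, B or C for the western diet groups. All C57 libraries were low in Y-linked transcripts, as given below, and the western diet groups were mixed. The effects of transgene, title series and any difference in diet cannot be told apart.

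Every sample is labelled kidney, and the labels and the data disagree for 8 of them. The Hap-I aged and Hap-I adult libraries without western diet held 44.0 to 63.4 TPM (length-scaled transcript abundance) summed over 13 nephron markers and 4848 to 5866 TPM over 8 neuron markers. The other 16 libraries held 495 to 6242 TPM over the nephron markers and 2.07 to 14.96 TPM over the neuron markers. These 16 are called kidney libraries below and the other 8 brain-like libraries. Diet and tissue content cannot be told apart between the 2 sets, so the diet itself was not tested in Hap-I mice.

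MHC molecules display peptides on the cell surface to T cells. Class I molecules, made of a heavy chain and beta-2 microglobulin, are found on nearly all nucleated cells and carry peptides from the cytosol that the TAP transporter moves into the endoplasmic reticulum. Class II molecules belong mainly to dendritic cells, macrophages and B cells. Their chains assemble on the invariant chain, cathepsin S trims that chain in endosomes, and H2-DM exchanges the remaining fragment for peptides. In the kidney, resident macrophages and dendritic cells carry most of the class II under resting conditions, and interferon gamma can raise both classes. In the brain, microglia at rest have little class II.

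The proximal promoters are shown because class II genes and their helpers share an arrangement of short elements, the X and Y boxes, that is read by the RFX and NF-Y complexes together with CIITA, and class I genes carry a related module. RefSeq promoter windows (build GRCm38.p6, from 250 bases before to 50 bases after the annotated start) were found for H2-Aa, H2-Eb1, H2-DMa, H2-DMb1, Ctss, H2-K1 and H2-D1, and those for H2-Ab1, Cd74 and Ciita were missing. The windows lie at chr17:34287774-34288073 on the minus strand (H2-Aa), chr17:34305617-34305916 on the plus strand (H2-Eb1), chr17:34152941-34153240 on the plus strand (H2-DMb1), chr17:34122582-34122881 on the plus strand (H2-DMa), chr17:34000298-34000597 on the minus strand (H2-K1), chr17:35262844-35263143 on the plus strand (H2-D1) and chr3:95526536-95526835 on the plus strand (Ctss). Capitals mark matches on either strand to the Y box core CCAAT, the X1 box core ACNGATG, the X2 box core TGACG, the core of the interferon-stimulated response element and the gamma-activated site TTCNNNGAA. Each sequence runs 5′ to 3′ on the gene's own strand.
H2-Aa: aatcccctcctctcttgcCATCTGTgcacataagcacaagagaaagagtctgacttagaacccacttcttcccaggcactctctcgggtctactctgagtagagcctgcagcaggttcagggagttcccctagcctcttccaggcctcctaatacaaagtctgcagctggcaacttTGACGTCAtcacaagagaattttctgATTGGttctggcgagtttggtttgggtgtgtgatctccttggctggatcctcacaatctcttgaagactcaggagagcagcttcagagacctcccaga
H2-Eb1: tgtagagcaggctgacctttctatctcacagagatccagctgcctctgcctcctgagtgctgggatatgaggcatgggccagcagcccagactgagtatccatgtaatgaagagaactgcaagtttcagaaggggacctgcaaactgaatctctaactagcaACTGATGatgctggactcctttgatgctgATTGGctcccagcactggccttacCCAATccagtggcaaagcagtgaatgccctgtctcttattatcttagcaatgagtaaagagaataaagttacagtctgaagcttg
H2-DMb1: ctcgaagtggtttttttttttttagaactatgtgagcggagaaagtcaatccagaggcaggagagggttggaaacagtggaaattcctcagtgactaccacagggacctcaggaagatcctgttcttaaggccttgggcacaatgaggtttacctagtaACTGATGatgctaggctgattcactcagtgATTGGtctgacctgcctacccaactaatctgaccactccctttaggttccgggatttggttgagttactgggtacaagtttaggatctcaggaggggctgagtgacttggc
H2-DMa: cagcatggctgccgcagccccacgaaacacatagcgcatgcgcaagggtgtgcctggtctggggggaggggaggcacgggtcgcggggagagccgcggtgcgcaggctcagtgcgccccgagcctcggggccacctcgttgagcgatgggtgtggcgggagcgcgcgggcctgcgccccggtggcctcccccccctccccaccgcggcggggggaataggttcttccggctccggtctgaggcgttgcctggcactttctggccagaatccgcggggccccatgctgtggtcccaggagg
H2-K1: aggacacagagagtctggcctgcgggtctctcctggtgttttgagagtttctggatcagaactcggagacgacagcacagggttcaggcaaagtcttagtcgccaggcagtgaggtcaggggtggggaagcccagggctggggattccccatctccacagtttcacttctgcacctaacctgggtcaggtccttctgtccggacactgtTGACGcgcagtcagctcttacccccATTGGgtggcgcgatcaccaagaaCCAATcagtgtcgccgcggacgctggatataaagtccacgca
H2-D1: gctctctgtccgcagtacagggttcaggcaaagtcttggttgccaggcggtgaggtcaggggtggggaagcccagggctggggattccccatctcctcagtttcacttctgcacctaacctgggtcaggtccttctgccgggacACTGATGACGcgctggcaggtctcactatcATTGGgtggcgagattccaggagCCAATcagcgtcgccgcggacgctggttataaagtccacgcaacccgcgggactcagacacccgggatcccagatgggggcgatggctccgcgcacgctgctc
Ctss: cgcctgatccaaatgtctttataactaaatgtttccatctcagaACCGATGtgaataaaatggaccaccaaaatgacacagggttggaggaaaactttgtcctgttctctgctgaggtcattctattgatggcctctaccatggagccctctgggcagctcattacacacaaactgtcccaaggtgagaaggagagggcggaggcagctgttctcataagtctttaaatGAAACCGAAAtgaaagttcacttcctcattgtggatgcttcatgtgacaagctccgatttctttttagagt

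In H2-Eb1 and H2-DMb1 an X1 core was followed by a Y core, with 29 and 30 bases between their first bases. H2-D1 had the same pair 30 bases apart, with an X2 core that overlaps its X1 core. In the gene's orientation, and with 15 to 40 bases between the starts, that pair was found in 36 of 32851 windows (0.11%). H2-Aa had no X1 core near its Y core in these letters, but 2 overlapping X2 cores, 1 on each strand, 26 and 23 bases before it, and H2-K1 had an X2 core 25 bases before a Y core. Taken singly the elements were common, since the Y core was in 37.4% of all windows, the X1 core in 9.85%, the X2 core in 20.8% and the gamma-activated site in 8.3%. The interferon-stimulated element was in 3.44% of windows and, among the members with a window, only in Ctss in these letters. Looser forms of this element were not searched, so the other windows, those of H2-K1 and H2-D1 included, may hold them. The H2-K1 and H2-D1 windows were identical at 211 of 240 aligned positions (87.9%). The H2-DMa window printed here held none of the elements, and a second RefSeq window of the gene, not printed, held a Y core alone, 198 bases before its start. The printed window belongs to the transcript H2-DMa-201, which starts 198 bases from the start of Brd2, a chromatin reader gene on the opposite strand, whereas 3 of the 8 annotated H2-DMa transcripts start well downstream, inside the gene.

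Values are TPM as deposited, which are scaled for transcript length and for the library total, so that levels of different genes can be set side by side. The deposited TPM of a library summed to between 904693 and 944019, with 15975 to 18761 genes above 0, and read depth is unknown because TPM does not keep it. Mitochondrially encoded genes took 21.2% to 35.7% of the TPM in the western diet kidneys and 12.4% to 16.9% in C57 kidneys. In 9 of the 16 kidney libraries, including all 4 from C57, the Y-linked gene Eif2s3y was under 5 TPM and 4 Y-linked genes summed to 0.485 to 2.16 TPM, against 13.2 to 40.2 TPM in the other 7. The 12 libraries of the western diet groups hold both kinds. Pseudo-alignment can divide reads between near-identical genes. Of the 31-base words of a member's transcripts, 31.4% in H2-DMb1 were shared with its neighbour H2-DMb2, and 22.8% in H2-K1 and 26.7% in H2-D1 were shared with other genes, largely each other and other class I genes. A share of words is not a share of reads, so these 3 values are uncertain to an extent that is not known.

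In the kidney libraries the class II chains were abundant. H2-Aa, the I-A alpha chain (ENSMUSG00000036594, chr17:34282744-34287823), was at 165, 171, 206 and 95.1 TPM in the 4 aged Hap-I kidneys on western diet and at 165, 107, 79.7 and 50.2 TPM in the 4 adult Hap-I kidneys on the diet, at 175, 129, 76.4 and 107 TPM in Hap-II adults given it, and at 251, 175, 170.4 and 117 TPM in C57 kidneys, in the order of the replicate numbers. All 4 groups overlapped. H2-Ab1, the I-A beta chain (ENSMUSG00000073421, chr17:34257689-34269419), was at 91.7, 131, 139 and 44.0 TPM in aged Hap-I kidneys on the diet and at 86.1, 53.1, 36.4 and 17.7 TPM in the adults, at 153, 86.8, 33.4 and 69.3 TPM in Hap-II adults given it, and at 105.5, 49.4, 51.1 and 50.4 TPM in C57 kidneys. Its order of groups differs from that of H2-Aa, with C57 below the means of the aged Hap-I and Hap-II groups.

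H2-Eb1 (ENSMUSG00000060586, chr17:34305867-34316674), the I-E beta chain, stayed at 0.163 to 3.81 TPM in all 16 kidney libraries. It averaged 1.60 ± 1.54 TPM in aged Hap-I kidneys on the diet (SD, n = 4, as for all means here) and 0.608 ± 0.532 TPM in the adults, 1.45 ± 0.431 TPM in Hap-II adults and 1.93 ± 0.782 TPM in C57 kidneys. The partner of I-E beta is I-E alpha, whose gene is inactive in mice of the C57BL/6 background, and its locus H2-Ea-ps was listed at 0 in all 24 libraries. Why the H2-Eb1 values are low was not tested.

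Cd74 was the highest of the class II genes in most kidney libraries (ENSMUSG00000024610, chr18:60803848-60812652). It was at 204, 391, 355 and 119 TPM in aged Hap-I kidneys on the diet and at 203, 122, 89.5 and 49.1 TPM in adults, at 327, 146, 69.8 and 145 TPM in Hap-II adults given it, and at 492, 306, 293.5 and 240.1 TPM in C57 kidneys. The 4 C57 values lay above all 4 values of the adult Hap-I kidneys, and overlapped those of the other 2 groups. H2-DMb1 (ENSMUSG00000079547, chr17:34153072-34160230) was at 21.7, 31.7, 30.3 and 16.03 TPM in aged Hap-I kidneys on the diet and at 20.5, 16.2, 9.90 and 7.52 TPM in adults, at 28.0, 26.1, 13.6 and 14.2 TPM in Hap-II adults, and at 36.6, 22.3, 24.2 and 20.9 TPM in C57 kidneys. Its partner chain H2-DMa (ENSMUSG00000037649, chr17:34119541-34139101) was far lower, at 0.0786 to 0.611 TPM over the same 16 libraries.

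Ciita (ENSMUSG00000022504, chr16:10480059-10528418), on which class II transcription depends, was low throughout, as transcription regulators often are. It was at 0.930, 0.881, 0.945 and 0.698 TPM in aged Hap-I kidneys on the diet and at 0.683, 0.596, 0.322 and 0.150 TPM in adults, at 1.06, 0.662, 0.383 and 0.662 TPM in Hap-II adults, and at 1.58, 0.911, 0.846 and 1.10 TPM in C57 kidneys. The aged Hap-I kidneys all lay above the adult Hap-I kidneys. Ctss (ENSMUSG00000038642, chr3:95526786-95556403), the protease that trims the invariant chain, was at 71.4, 52.1, 49.1 and 21.0 TPM in aged Hap-I kidneys on the diet and at 26.0, 15.8, 13.1 and 9.95 TPM in adults, at 33.7, 21.6, 13.9 and 23.8 TPM in Hap-II adults, and at 31.8, 28.3, 24.3 and 15.8 TPM in C57 kidneys. Here the aged Hap-I mean, 48.4 ± 20.8 TPM, was the highest of the 4 kidney groups, with 25.04 ± 6.89 TPM in C57.

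Class I heavy chains reached the same range as class II. H2-K1 (ENSMUSG00000061232, chr17:33996017-34000347) was at 110.5, 175, 218 and 117 TPM in aged Hap-I kidneys on the diet and at 114, 83.8, 66.1 and 42.7 TPM in adults, at 193, 94.6, 51.9 and 102 TPM in Hap-II adults given it, and at 342, 228, 224 and 210.5 TPM in C57 kidneys. All 4 C57 kidneys lay above all adult kidneys on the diet of either haplotype. H2-D1 (ENSMUSG00000073411, chr17:35262730-35267499) was at 142, 167.5, 249.7 and 191.5 TPM in aged Hap-I kidneys on the diet and at 115, 89.4, 76.6 and 75.9 TPM in adults, at 167, 97.4, 61.2 and 123 TPM in Hap-II adults, and at 284, 177, 173 and 159.8 TPM in C57 kidneys. The aged and the adult Hap-I kidneys did not overlap for H2-D1.

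**Figure D1:**
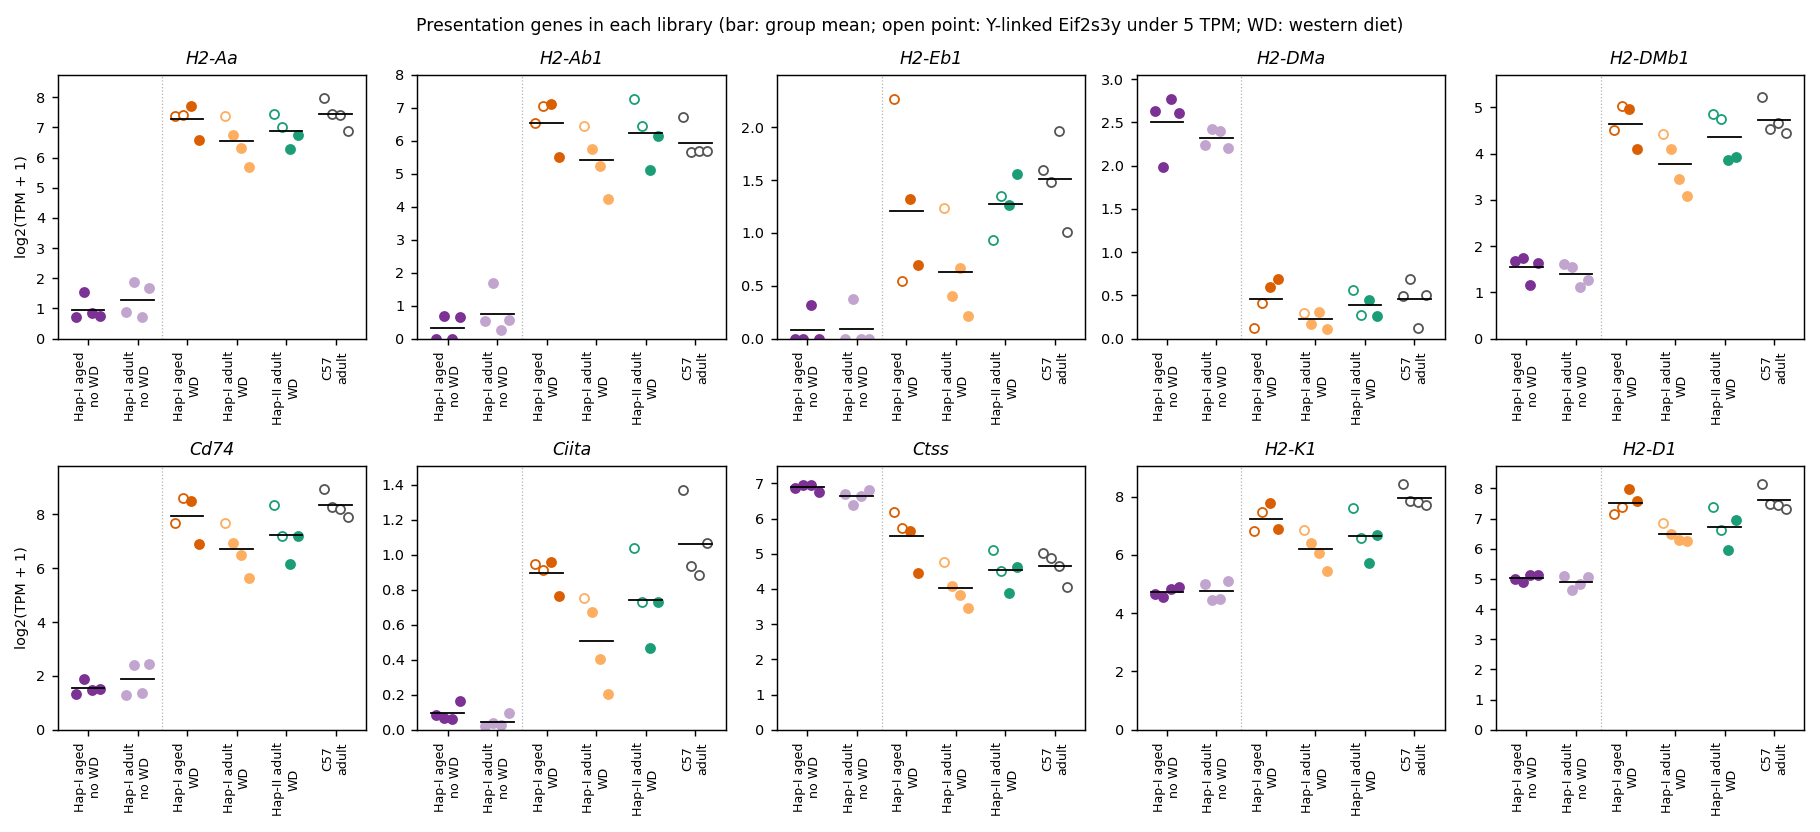
Level of each gene, as log2(TPM + 1), in every library by group, with a bar at the group mean; open points are libraries with Eif2s3y under 5 TPM, and the dotted line divides the brain-like libraries (left) from the kidney libraries. H2-Aa, H2-Ab1, H2-DMb1, Cd74, Ciita, H2-K1 and H2-D1 were lower in every brain-like than in every kidney library. H2-Eb1 was lower in all brain-like than in most kidney libraries, and Ctss and H2-DMa were higher in every brain-like library. The kidney groups overlap for most genes.

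The members varied widely. Over the 16 kidney libraries the highest value was 23.4 times the lowest for H2-Eb1, 10.5 times for Ciita, 10.03 times for Cd74, 8.62 times for H2-Ab1, 8.01 times for H2-K1, 7.78 times for H2-DMa, 7.18 times for Ctss, 5.00 times for H2-Aa, 4.87 times for H2-DMb1 and 4.63 times for H2-D1. Within a kidney group, Cd74 differed by 2.05 to 4.68 times between animals. In 2 groups the same animals were at the ends for most members: replicate 1 of the adult Hap-I kidneys on the diet was highest of its group for 9 of the 10 members and replicate 4 lowest for all 10, and replicate 1 of the Hap-II kidneys was highest for 9 and replicate 3 lowest for 8. Those 2 lowest libraries were also the 2 with the fewest genes above 0, 15975 and 15999. In aged Hap-I kidneys on the diet the highest value fell to replicate 3 for 5 members and the lowest to replicate 4 for 6, with the rest spread over the other libraries. Replicate 1 of C57 was highest of its group for 8 members and replicate 4 lowest for 7. Replicate 1 had the highest summed B cell markers of the kidney libraries, 39.2 TPM, against 4.37 to 12.98 TPM in the other C57 kidneys.

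Over the 16 kidney libraries, the mean of H2-Aa, H2-Ab1, H2-Eb1 and Cd74 on the log2 scale, each centred, was followed by Ciita with a Pearson r of 0.89, H2-DMb1 with 0.93, Ctss with 0.85, H2-K1 with 0.86 and H2-D1 with 0.78. H2-Eb1, itself in the mean, reached 0.62, and H2-DMa reached 0.29. These are descriptions over libraries that share group and library scaling. Among 8004 other genes with a mean of at least 5 TPM, the 5 most alike were C1qa (r = 0.92), a subunit of the complement protein C1q that macrophages make, Tgfbi (0.91), an extracellular matrix protein, Unc93b1 (0.91), which escorts nucleic acid-sensing Toll-like receptors, Lcp1 (0.91), an actin-bundling protein of leukocytes, and C1qb (0.90). C1qa was at 8.37 to 57.5 TPM and C1qb at 12.005 to 63.6 TPM over these libraries.

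Markers of leukocytes were set beside the members. The 6 leukocyte markers (Ptprc, Laptm5, Coro1a, Cd53, Itgb2 and Cd48) were above 0 in every kidney library and summed to 32.6 to 83.0 TPM in aged Hap-I kidneys on the diet and 12.3 to 38.9 TPM in adults, 20.2 to 52.3 TPM in Hap-II adults and 30.0 to 68.8 TPM in C57 kidneys. The 12 macrophage markers summed to 149.96 to 528 TPM in aged Hap-I kidneys on the diet and 61.8 to 227 TPM in adults, 136 to 253 TPM in Hap-II adults and 157 to 277 TPM in C57 kidneys, and Cd163 among them was listed at 0 in 6 of the 16. Lyz2 was a large part of these sums, at 62.4 to 354 TPM in aged Hap-I kidneys and 60.4 to 126 TPM in Hap-II adults. The sum of 528 TPM, in replicate 1 of the aged group, held the 354 TPM of Lyz2. C1qa was at 55.4 TPM in that library and 57.5 TPM in replicate 2. The dendritic cell markers were lower, at 4.43 to 14.7 TPM summed over 10 genes. In bulk tissue, fewer cells of a type and less RNA per cell cannot be told apart, and the part of these markers in the results on the members was not tested.

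Libraries with and without Y-linked transcripts differed in some of the members. In Hap-I and in Hap-II adults on the diet, H2-Aa, H2-Ab1, H2-DMb1, Cd74 and Ciita were higher in every library with Eif2s3y under 5 TPM than in every library above it, and Ctss was so in the adult and the aged Hap-I groups. H2-Eb1, H2-K1 and H2-D1 were so in 1 of the 3 western diet groups and H2-DMa in 0 of 3. In aged Hap-I kidneys H2-D1 and H2-DMa ran the other way, with H2-D1 at 142 and 167.5 TPM in the 2 libraries under 5 TPM of Eif2s3y and 191.5 and 249.7 TPM in the 2 above it. For Cd74, the adult Hap-I library under 5 TPM held 203 TPM and the 3 above it 49.1 to 122 TPM, and in Hap-II adults the 2 under it held 146 and 327 TPM and the 2 above it 69.8 and 145 TPM. For Cd74 in aged Hap-I kidneys the 2 kinds overlapped, with 204 and 391 TPM under 5 TPM of Eif2s3y and 119 and 355 TPM above. These splits set 1 library against 3 in Hap-I adults and 2 against 2 in the other groups, and the share of all genes separated in this way was not counted. The single Hap-I adult library was replicate 1, the highest of its group for 9 members. In Hap-II adults the separation of Ciita was a near tie, 0.6621 TPM against 0.6619 TPM. The split was made from the data and its part in the group differences was not tested.

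**Figure D2:**
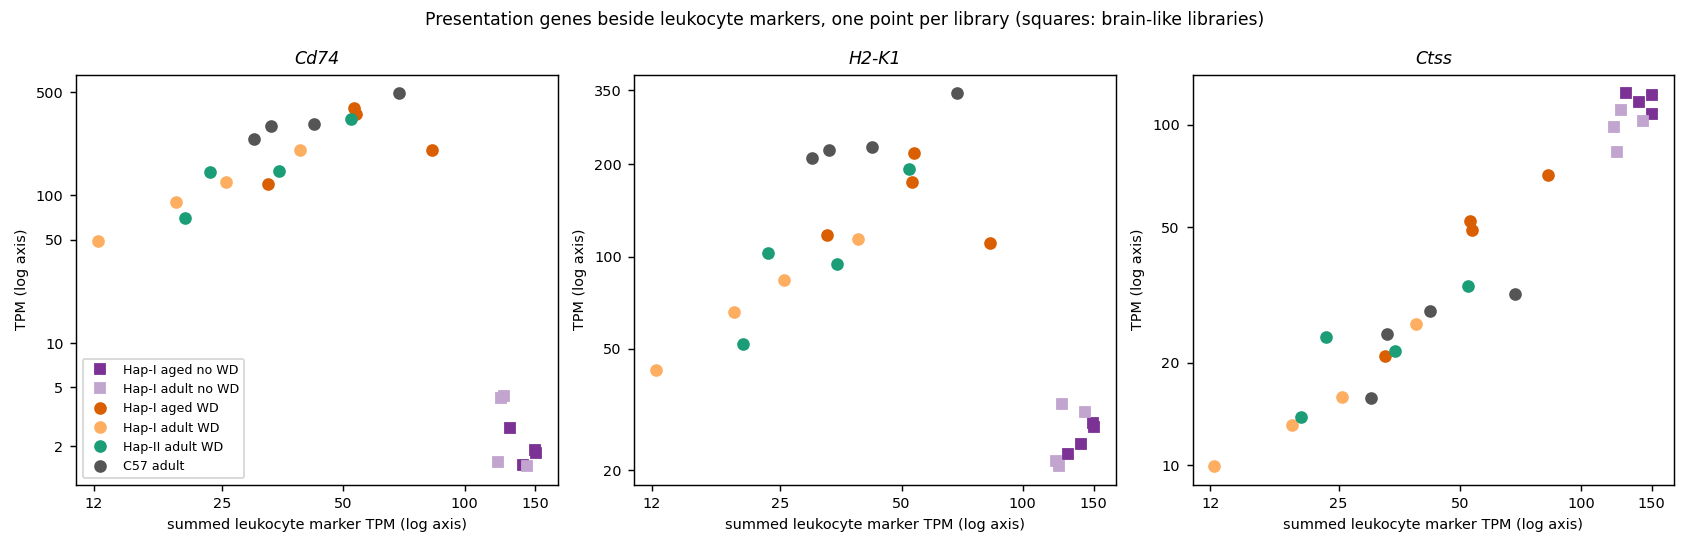
TPM of Cd74, H2-K1 and Ctss (y axis, log) against the summed TPM of 6 leukocyte markers (x axis, log), with 1 point per library. In the kidney libraries all 3 genes mostly run with the markers, with replicate 1 of the aged Hap-I group, at 83.0 TPM of the markers, below the trend for Cd74 and H2-K1, while the brain-like libraries (squares) have 121 to 151 TPM of the markers, 1.47 to 4.38 TPM of Cd74 and 83.4 to 124 TPM of Ctss. In the brain-like libraries most of the marker sum is Coro1a, at 70.1 to 103 TPM.

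Age on western diet was compared between aged and adult Hap-I kidneys. Values were fitted as log2(TPM + 1) with limma over the 16 kidney libraries, and genes with at least 1 TPM in at least 4 of them were kept, which left out H2-DMa and Ciita. None of the 8 members tested passed an adjusted p of 0.05 (Benjamini-Hochberg over 12923 genes), in a comparison that called 4 genes (0.031%), 3 higher and 1 lower. All 8 had positive log2 changes, with a median of 1.046 against 0.32 over all genes tested, and 6 of the 8 had an unadjusted p under 0.05, as had 2080 of all 12923 genes. The largest was Ctss, with 48.4 ± 20.8 TPM in aged mice and 16.2 ± 6.96 TPM in adult kidneys and a log2 change of 1.48 ± 0.37 (SE; limma adjusted p = 0.126). H2-D1 averaged 188 ± 46.0 TPM in aged mice and 89.2 ± 18.3 TPM in adult kidneys (log2 change 1.054, adjusted p = 0.139), and Cd74 267 ± 128 TPM in aged mice and 116 ± 65.3 TPM in adult kidneys (log2 change 1.23, adjusted p = 0.247). H2-Eb1 was nearest to the median of all genes, at 0.58 ± 0.33 (limma adjusted p = 0.368).

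Of the 10 members, Ciita and H2-D1 had every aged kidney above every adult kidney, where 6.18% of all genes tested did. The call for Ctss depended on the libraries and the model used: without replicate 4 of the aged group, the lowest of that group for 6 members, its adjusted p was 0.0338 with a log2 change of 1.83. Ctss was also called with the title number as a block, given in the last section, though the numbers were not taken as pairs. The summed endothelial markers, at 212 to 303 TPM in aged mice and 106 to 209 TPM in adult kidneys, were higher without overlap as well. So were the summed T cell markers, at 14.7 to 23.8 TPM in aged mice and 4.73 to 10.9 TPM in adult kidneys, of which 4 of 7 tested genes had an unadjusted p under 0.05 and none passed the threshold (smallest limma adjusted p = 0.0916). The part of these markers in the result was not tested.

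The other genes of the pathways had positive median changes, and none passed the threshold. In the class I list, whose median log2 change was 0.71, none of 26 tested genes was called, and 13 had an unadjusted p under 0.05. B2m, the light chain shared by all class I molecules, averaged 774 ± 103 TPM in aged mice and 351 ± 119 TPM in adult kidneys (log2 change 1.18, limma adjusted p = 0.0985), and H2-Q4, a non-classical class I gene, 36.8 ± 7.19 TPM in aged mice and 15.4 ± 5.58 TPM in adult kidneys (1.24, adjusted p = 0.0985). In the interferon gamma list none of 17 was called, with a median of 0.77. The receptor chain Ifngr1 was at 26.8 ± 6.31 TPM in aged mice and 14.04 ± 1.87 TPM in adult kidneys (limma adjusted p = 0.127). The class II list, made of proteases, H2-O, H2-E and H2-DMb2 genes, Cd1d1, Mr1 and regulators, had a median of 0.49, and none of 14 was called. The genes with the smallest adjusted p there were H2-Oa (0.336), a chain that restrains H2-DM, and Ctsz (0.344), an endosomal protease.

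For haplotype, adults on western diet were compared, Hap-I against Hap-II. None of the 8 members was called, in a comparison that called 10 of 12923 genes (0.0774%), 3 higher and 7 lower, and no member had an unadjusted p under 0.05. All 8 log2 changes were negative, with a median of −0.52 against −0.22 over all genes, and each of the 10 members overlapped between the groups, where 2.53% of all genes tested did not. H2-Ab1 had the largest difference, with 48.3 ± 29.0 TPM in Hap-I kidneys and 85.6 ± 49.96 TPM in Hap-II kidneys (log2 change −0.83 ± 0.49 SE, limma adjusted p = 0.817). The class I, class II and interferon gamma lists had no call among 26, 14 and 17 genes. B2m averaged 351 ± 119 TPM in Hap-I kidneys and 563 ± 192 TPM in Hap-II kidneys (log2 change −0.67, adjusted p = 0.817).

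Hap-I adults on western diet were then set against C57 adults. Of the 8 members tested, 6 were lower in Hap-I kidneys and none higher at the deposited scale, but so were most genes, and for H2-Aa and H2-DMb1 the direction turned round under another scaling: 62% of 12923 genes were called, 7715 lower (59.7%) and 294 higher, and the median log2 change was −0.80 over all genes and −0.92 over the members. H2-K1 averaged 76.6 ± 29.9 TPM in Hap-I kidneys and 251 ± 61.0 TPM in C57 kidneys (log2 change −1.76 ± 0.36 SE, limma adjusted p = 0.00176). Cd74 averaged 116 ± 65.3 TPM in Hap-I kidneys and 333 ± 110 TPM in C57 kidneys (−1.64 ± 0.48, adjusted p = 0.00869), and H2-D1 89.2 ± 18.3 TPM in Hap-I kidneys and 199 ± 57.3 TPM in C57 kidneys (−1.13 ± 0.28, adjusted p = 0.00422). H2-DMb1 (−0.95, adjusted p = 0.02), H2-Aa (−0.90, adjusted p = 0.0354) and H2-Eb1 (−0.88, adjusted p = 0.0314) changed by about as much as the median gene. H2-Ab1 (−0.53, adjusted p = 0.35) and Ctss (−0.63, adjusted p = 0.136) were not called. Of the 10 members, H2-DMb1, Cd74, Ciita, H2-K1 and H2-D1 had every Hap-I kidney below every C57 kidney, as had 55.3% of all genes tested.

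When each library was rescaled by the median of its ratios to the other libraries, which moves the median of all genes to 0.00, the calls over all genes were 2317 higher and 1779 lower, and H2-K1 was the only member still called (log2 change −0.75, limma adjusted p = 0.0368). H2-Aa, H2-Ab1, H2-DMb1 and Ctss then had positive changes, of 0.12, 0.46, 0.01 and 0.33, none of them called. In the fit of the 9 kidney libraries with Eif2s3y under 5 TPM, where the Hap-I adults are a single library assumed to vary like the other groups, no member was called. Without C57 replicate 1, or without replicate 3 or 4 of the Hap-I group, 3 members were called, which were H2-K1, Cd74 and H2-D1 each time.

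Hap-II adults on western diet, set against the same C57 libraries, had 2 members lower and none higher, where 39.7% of 12923 genes were called, 4774 lower (36.9%) and 353 higher. These were H2-K1, with 110.4 ± 59.2 TPM in Hap-II and 251 ± 61.0 TPM in C57 kidneys (log2 change −1.30 ± 0.36 SE, limma adjusted p = 0.014), and H2-D1, with 112 ± 44.4 TPM in Hap-II and 199 ± 57.3 TPM in C57 kidneys (−0.87 ± 0.28, adjusted p = 0.0257). The members' median log2 change was −0.46 and that of all genes −0.59. H2-K1 alone had every Hap-II kidney below every C57 kidney, as had 26.7% of all genes tested. Cd74 was at −1.11 (adjusted p = 0.07) and H2-Ab1 at 0.30 (adjusted p = 0.631). With median-of-ratios rescaling the calls over all genes were 1661 higher and 1216 lower, with no member among them, and without replicate 3 of the Hap-II group no member was called either. Since the 2 haplotype comparisons use the same C57 kidneys, their values are not independent of each other.

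**Figure D3:**
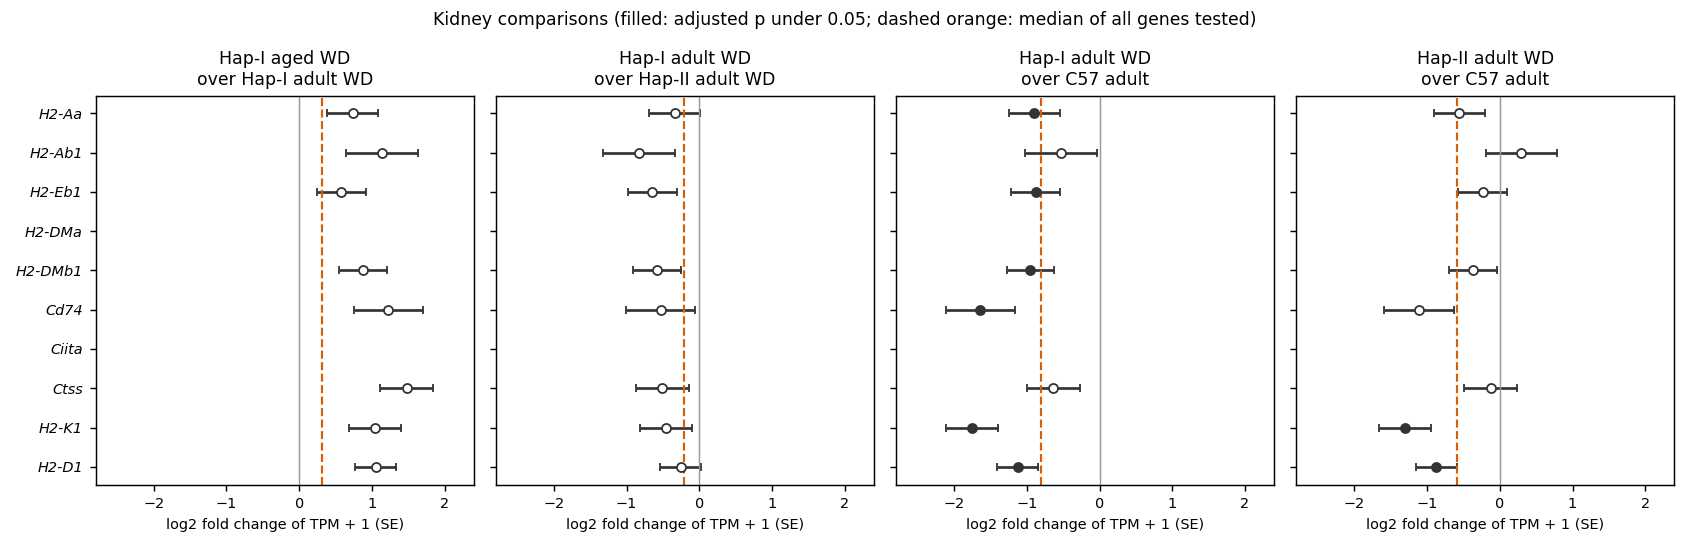
Log2 fold change of TPM + 1 (x axis, with SE) for each member in the 4 kidney comparisons, with filled points for an adjusted p under 0.05 and a dashed line at the median of all genes tested. For Hap-I adults against C57 the points of H2-Aa, H2-Eb1 and H2-DMb1 lie near the dashed line at −0.80, and in both comparisons with C57 H2-K1 lies left of the line, at −1.76 and −1.30.

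Ratios between 2 genes of the same library do not depend on how the library was scaled. H2-K1 over H2-D1 was 0.99, 0.94, 0.86 and 0.56 in Hap-I adults on the diet, 1.155, 0.97, 0.85 and 0.83 in Hap-II adults given it and 1.205, 1.28, 1.29 and 1.32 in C57 kidneys. All 12 western diet libraries, aged Hap-I included, ran from 0.562 to 1.155 and the 4 C57 libraries from 1.205 to 1.32, without overlap. The log2 difference was −0.64 for Hap-I adults and −0.43 for Hap-II adults against C57, each with an exact two-sided permutation p of 0.0286, the smallest that 4 against 4 libraries allow, and 0.0686 after adjustment over 12 such tests. These ratios were chosen after the values had been seen, and reads divided between the 2 genes and their copies could shift them.

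Cd74 over H2-Aa was 1.23, 1.14, 1.12 and 0.98 in Hap-I adults on the diet and 1.96, 1.75, 1.72 and 2.06 in C57 kidneys, again without overlap (log2 difference −0.75, exact permutation p = 0.0286, adjusted 0.0686). In aged Hap-I kidneys on the diet it was 1.24, 2.29, 1.72 and 1.25, above all 4 adult Hap-I kidneys (log2 difference 0.50, exact permutation p = 0.0286, adjusted 0.0686). In Hap-II adults on the diet Cd74 over H2-Aa was 0.91 to 1.87 and overlapped C57 (log2 difference −0.56, exact permutation p = 0.0857, adjusted 0.171). H2-Ab1 over H2-Aa differed between Hap-II adults, at 0.44 to 0.87, and C57 kidneys, at 0.28 to 0.43, by 0.86 on the log2 scale (exact permutation p = 0.0286, adjusted 0.0686), and was 0.35 to 0.52 in Hap-I adults on the diet (a log2 difference of 0.36 against C57, exact permutation p = 0.143, adjusted 0.19). B2m over the sum of H2-K1 and H2-D1 was 1.65 to 3.23 in the 12 western diet kidneys and 1.15 to 1.60 in the 4 C57 kidneys.

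**Figure D4:**
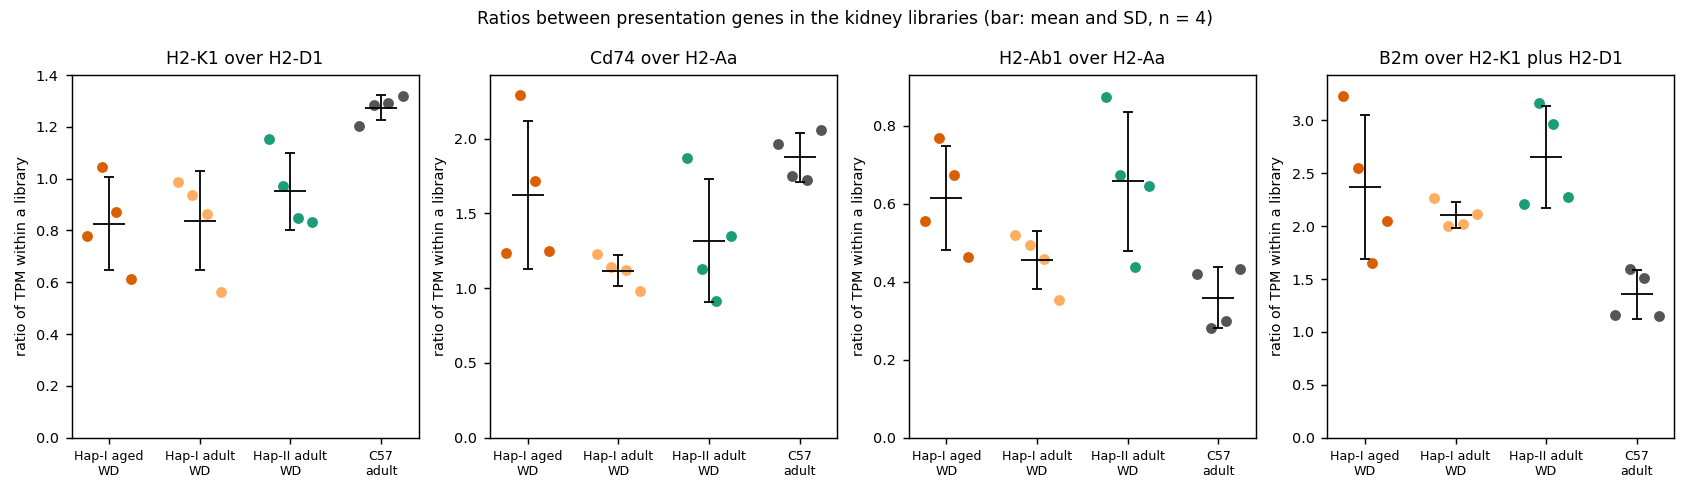
Ratios of TPM between presentation genes within each kidney library (y axis) by group, with a bar at the mean and SD of 4 libraries. H2-K1 over H2-D1 is at least 1.205 in all 4 C57 libraries and at most 1.155 in the 12 western diet libraries, and B2m over the 2 heavy chains runs the other way.

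Around the members, and at the deposited scale, the class II list had 11 of 14 tested genes lower in Hap-I adults on the diet than in C57 kidneys and 5 of 14 lower in Hap-II adults, with none higher in either, beside 59.7% and 36.9% of all genes tested that were lower. With median-of-ratios rescaling these counts were 2 lower and 1 higher in Hap-I adults, and 1 lower and 1 higher in Hap-II adults. Endosomal proteases were among those lower in Hap-I adults: Ctsd averaged 192 ± 19.4 TPM in Hap-I kidneys and 521 ± 35.4 TPM in C57 kidneys (log2 change −1.43, limma adjusted p = 0.00203), Ctsb 75.4 ± 14.6 TPM in Hap-I kidneys and 199.8 ± 6.04 TPM in C57 kidneys (−1.41, adjusted p = 0.00419), and Lgmn 228 ± 53.0 TPM in Hap-I kidneys and 508 ± 69.0 TPM in C57 kidneys (−1.17, adjusted p = 0.0284). These proteases are also abundant in tubule cells, and the nephron markers were lower as well, at 495 to 1675 TPM summed in Hap-I adults on the diet and 3688 to 6242 TPM in C57 kidneys. The part of tubule content in the protease values was not tested. Cd1d1 and Mr1, which present lipids and vitamin metabolites, fell by 1.87 and 1.55 on the log2 scale in Hap-I adults against C57 and by 1.59 and 1.06 in Hap-II adults. Both were counted in this list without being class II genes. After rescaling, Cd1d1 and Mr1 were the 2 genes of the list still lower in Hap-I adults, at −1.10 and −0.82 (limma adjusted p = 0.0148 and 0.0423), and the 3 proteases were at −0.42, −0.40 and −0.15 and not called.

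In the class I list, 13 of 26 tested genes were lower in Hap-I adults on the diet than in C57 kidneys and 6 of 26 lower in Hap-II adults at the deposited scale, shares below those of all genes tested, against 2 and 0 after median-of-ratios rescaling, which moved the list median in Hap-I adults to 0.19. Tap2, a subunit of the peptide transporter, averaged 3.76 ± 1.94 TPM in Hap-I kidneys and 13.3 ± 2.47 TPM in C57 kidneys (log2 change −1.66, limma adjusted p = 0.00198), and Tap1 2.97 ± 1.12 TPM in Hap-I kidneys and 8.07 ± 2.59 TPM in C57 kidneys (−1.19, adjusted p = 0.00265). The endoplasmic reticulum chaperones Calr and Canx, the trimming peptidase Erap1 and the tapasin-like Tapbpl fell by 1.68, 1.62, 1.33 and 1.14 in Hap-I adults against C57. After rescaling, Tap2 and Erap1 were still called, at −0.79 and −0.47 (limma adjusted p = 0.0304 and 0.0496). In the interferon gamma list, 13 of 17 were lower in Hap-I adults and 9 of 17 in Hap-II adults than in C57, and 3 and 1 after rescaling. Of all genes tested, 59.7% and 36.9% were lower at the deposited scale. Without replicate 3 of the Hap-II group, 2 of 14 class II, 1 of 26 class I and 0 of 17 interferon gamma genes were lower in Hap-II adults, and without replicate 4 of the Hap-I group 6, 11 and 10 were lower in Hap-I adults. Calls over all genes, in either direction, moved too when 1 library was left out. They ran from 6042 to 8104 in Hap-I adults and from 1803 to 6961 in Hap-II adults, against 8009 and 5127 as reported. Gbp3, a guanylate-binding protein, was at 8.42 ± 9.73 TPM in Hap-I kidneys and 47.0 ± 17.7 TPM in C57 kidneys (−2.74, adjusted p = 0.00262) and at 12.1 ± 9.84 TPM in Hap-II kidneys (−2.20, limma adjusted p = 0.015), and it was still called in both after rescaling, at −1.82 and −1.53. The medians of the 3 lists, −0.93, −0.71 and −1.01 in Hap-I adults, stand beside −0.80 for all genes. Of the costimulation list, 2 of 5 genes were lower in each comparison at the deposited scale, beside the shares of all genes given above. Icosl, the ligand of the T cell receptor ICOS, was lower by 1.58 and 1.80, and Tnfsf9, the ligand of 4-1BB, by 0.76 and 0.77, in Hap-I and Hap-II adults in that order. After rescaling, Icosl was still called in both, at −0.85 and −1.27, and Tnfsf9 in neither, at −0.34 and −0.43 (limma adjusted p = 0.335 and 0.252).

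The brain-like libraries held class I, Ctss and little class II. H2-Aa was at 0.658, 1.89, 0.802 and 0.667 TPM in aged mice and 0.850, 2.66, 0.657 and 2.18 TPM in adult Hap-I mice without the diet, Cd74 was at 1.4999 to 2.67 TPM in aged mice and 1.47 to 4.38 TPM in adults, and H2-Eb1 was listed at 0 in 3 of 4 libraries of each group. H2-K1 was at 22.7 to 28.5 TPM in aged mice and 20.7 to 33.01 TPM in adults, and H2-D1 at 29.1 to 34.3 TPM in aged mice and 23.6 to 32.9 TPM in adults. Cathepsin S, unlike the class II chains and the class I heavy chains, was abundant, at 117, 124, 122 and 108 TPM in aged mice and 103, 83.4, 98.7 and 111 TPM in adults, above the highest kidney library at 71.4 TPM. Leukocyte markers were abundant here too, at 129 to 151 TPM in aged mice and 121 to 143 TPM in adults. Cd74 over the leukocyte marker sum was 0.0108 to 0.0206 in aged and 0.0103 to 0.0349 in adult brain-like libraries, and 2.46 to 8.88 in the kidney libraries. Ctss over the same sum was 0.678 to 0.958 in the brain-like and 0.462 to 1.02 in the kidney libraries. Since the brain-like sum is mostly 1 gene, these ratios are not ratios to leukocyte content.

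Between aged and adult Hap-I mice without the diet, none of the 6 members tested was called, where 4 of 13497 genes (0.0296%) were, all higher. Ctss averaged 118 ± 7.36 TPM in aged mice and 99.0 ± 11.5 TPM in adults (log2 change 0.25 ± 0.11 SE, limma adjusted p = 0.315), and was the only member with an unadjusted p under 0.05. The members' median change was 0.16 and that of all genes 0.12. The class I, class II and interferon gamma lists had no call among 21, 11 and 15 genes. Whether the age difference was larger with than without the diet was not tested, since the tissue content differs as well.

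Hap-I adults without the diet against C57 adults compared brain-like with kidney libraries, and called 71.3% of 15200 genes. Of 9 members tested, 7 were lower and 2 higher in the Hap-I libraries, with a background of 25.6% lower and 45.6% higher, so genotype and tissue content cannot be told apart. Cd74 fell by 6.46 on the log2 scale and H2-Aa by 6.14, against H2-K1 by 3.19 and H2-D1 by 2.70. The 2 that were higher were Ctss (log2 change 1.98 ± 0.31 SE, limma adjusted p = 7.29e-06) and H2-DMa (1.86 ± 0.16, adjusted p = 5.42e-10). H2-DMa was at 3.70, 4.39, 4.28 and 3.60 TPM in Hap-I adults without the diet and at 0.411, 0.611, 0.0924 and 0.418 TPM in C57 kidneys, the opposite of its partner H2-DMb1, at 1.17 to 2.07 TPM in Hap-I adults without the diet and 20.9 to 36.6 TPM in C57 kidneys. Brd2, next to the H2-DMa window printed above, averaged 122 ± 6.93 TPM in Hap-I adults without the diet and 72.9 ± 13.6 TPM in C57 kidneys. Which H2-DMa transcripts the values come from is not known from gene-level TPM. Of the class II list 7 of 14 genes were lower and 3 higher in Hap-I adults without the diet, with Ctsl at −2.38, Lgmn at −2.28 and Cd1d1 at −2.25 on the log2 scale among those lower. Among those higher, the E3 ligase March1, which targets class II for degradation, was at 16.2 ± 4.29 TPM in Hap-I adults without the diet and 1.62 ± 0.281 TPM in C57 kidneys (log2 change 2.68, limma adjusted p = 3.99e-11). In the class I list 20 of 26 genes were lower and none higher, led by H2-Q6 and H2-Q7, at 1.02 ± 0.375 and 0.621 ± 0.215 TPM in Hap-I adults without the diet and 45.4 ± 10.3 and 23.8 ± 10.9 TPM in C57 kidneys.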

How the data were processed

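RNA from 24 mouse samples labelled kidney was isolated with a Qiagen kit and made into stranded Illumina TruSeq libraries after poly(A) pull-down, per the labels' protocols. The authors deposited 1 table of TPM per gene and library. Named per the submitters' processing notes, with no version or role, are GRCm38, kallisto and DESeq2. Depth is unknown, so no counting interval is given.

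Identifiers were matched to GENCODE M21 symbols (29732 of 30153). Values were tested as log2(TPM + 1), after a filter of 1 TPM in 4 of the fitted libraries, with limma 3.58.1 in R 4.3.3, two-sided, with Benjamini-Hochberg adjustment over all genes at a threshold of 0.05. The 16 kidney libraries shared a fit for the 4 kidney comparisons. The 8 brain-like libraries had their own, and all 24 entered the comparison of Hap-I adults without the diet with C57. In simulated data for age on western diet, the fit found 43% of genes changed by 1 log2 unit and 93% of those changed by 2, among 12005 genes of which 200 were changed. Each simulated gene was drawn independently from a normal distribution, and changes were planted only in genes well above the filter. The shares therefore do not cover low members such as H2-Eb1, or spread that the genes of a library share. Replicates are separate animals by the design text. Ratios were compared by exact permutation.

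Members and gene lists were chosen with earlier results of these data known. All members are named, and from each list up to 6 genes past the threshold with the largest change, or the 2 with the smallest adjusted p where none passed. Gbp5, Ifi30, H2-L and H2-Ea were not analysed here. Another gene within this rule is not reported here. Alternatives covered pseudocount, filter, scaling, weights, libraries, gene copies, a Y-linked covariate and the title number as a block.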

Additional observations from a re-analysis of the deposited data

Results flagged for a closer look

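Each of the 10 members was checked in each of the 6 groups of 4 for a library far from the other 3, which made 60 checks, and 7 libraries stood apart. For independent values from a normal distribution, chance gives about 1 in 20. That rate does not apply as such here. Members of the same library are not independent, and where 3 libraries are at 0 any value above 0 is flagged. Replicate 1 of C57 stood above the other 3 kidneys for 3 members, with 105.5 TPM of H2-Ab1 against 49.4 to 51.1 TPM, 342 TPM of H2-K1 against 210.5 to 228 TPM, and 284 TPM of H2-D1 against 159.8 to 177 TPM. That library also had the highest summed leukocyte markers of its group, 68.8 TPM, and B cell markers, 39.2 TPM, whose part in these values was not tested. The other 4 were at low levels in brain-like libraries: H2-Aa in aged Hap-I replicate 2 at 1.89 TPM against 0.658 to 0.802 TPM, H2-Ab1 in adult Hap-I replicate 2 at 2.19 TPM against 0.185 to 0.463 TPM, and H2-Eb1 in aged replicate 3 at 0.249 TPM and in adult replicate 2 at 0.294 TPM, where the other 3 of each group were listed at 0.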

How the results depend on the processing

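Counts of members called were unchanged under every alternative for haplotype (0), for age without the diet (0), and stayed within 7 to 10 for Hap-I adults without the diet against C57. For age on the diet, array weights called 6 members, all 24 libraries fitted together 2 and leaving out 1 library 0 to 1, where 0 were called as reported. Array weights also called far more of all genes than the reported fit, as given below. For Hap-I adults against C57 the count was 6 as reported, 1 with median-of-ratios rescaling, 2 with quantile normalization, 3 without mitochondrial genes, 2 with a Y-linked covariate, 0 in the 9 libraries with Eif2s3y under 5 TPM, 3 without the 2 libraries of fewest genes, and 3 to 6 leaving out 1 library. For Hap-II adults against C57 it was 2 as reported, 0, 1, 1, 0, 0 and 1 under those alternatives in the same order, 4 with array weights, 1 with gene copies summed, and 0 to 3 leaving out 1 library. It was 0 without Hap-II replicate 3, and 1 without Hap-II replicate 2 or C57 replicate 1. The fit of the 9 libraries and that without 2 libraries were chosen after seeing the data. These member counts are not set against the calls over all genes under each alternative, which moved as well. For Hap-I adults against C57, leaving out 1 library gave 6042 to 8104 calls over all genes, where 8009 were called as reported.

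Some log2 changes turned round, and the cause was not tested. Against Hap-II, H2-D1 was 0.024 after median-of-ratios rescaling, and H2-Aa 0.14 and H2-Eb1 0.099 in the 9 libraries. For Hap-I adults against C57, median-of-ratios rescaling gave 0.12 for H2-Aa, 0.46 for H2-Ab1, 0.0053 for H2-DMb1 and 0.33 for Ctss, quantile normalization 0.21 for H2-Ab1 and 0.24 for Ctss, the Y-linked covariate 0.048 for H2-Ab1, and the 9 libraries 0.50 for H2-Ab1 and 0.097 for Ctss. For Hap-II adults against C57, median-of-ratios rescaling gave 0.18 for H2-Aa, 0.22 for H2-Eb1, 0.33 for H2-DMb1 and 0.58 for Ctss, quantile normalization 0.31 for H2-Eb1, 0.24 for H2-DMb1 and 0.50 for Ctss, and the 9 libraries 0.087 for H2-DMb1 and 0.15 for Ctss. Ctss was also 0.036 without mitochondrial genes, 0.21 with the Y-linked covariate and 0.091 without the 2 libraries, and leaving out 1 library gave −0.32 to 0.091 for Ctss and −0.045 to 0.67 for H2-Ab1. For age without the diet, H2-K1 was 0.068 with copies summed, 0.19 with the Y-linked covariate and −0.12 to 0.098 leaving out 1 library.

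Same-numbered libraries had correlations of 0.211, 0.04, 0.188 and 0.458 for age on the diet and 0.525, −0.045, 0.217 and 0.275 for haplotype, so the numbers were not taken as pairs. With the number as a block, age on the diet called 1 member (Ctss, limma adjusted p = 0.0408) and 30 genes, and haplotype 0 members and 17 genes. Over all genes, leaving out 1 library gave 2 to 22 calls for age on the diet against 4 as reported, 4 to 7 for haplotype against 10, and 1803 to 6961 for Hap-II against C57. Array weights gave 2199 and 51 for the first 2. Depth is unknown, and members under 1 TPM rest on few reads at most depths.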
